A study of Rattus norvegicus with 48 samples.

Results

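The miR-181 family was followed through small RNA sequencing of rat serum and ulna bone. Its 5 members studied here were taken by name, rno-miR-181a-5p, rno-miR-181b-5p, rno-miR-181c-5p, rno-miR-181d-5p and rno-miR-181a-1-3p, out of 763 mature miRNAs listed in each library, of which 629 had a read in at least 1 of the 48 libraries. ZDF rats (ZDF fa/fa, homozygous for a leptin receptor mutation) served as the model of type II diabetes, and Zucker lean rats, called WT, as the non-diabetic control. All rats were male, ate a chow rich in fat and carbohydrate, and carried a subcritical defect of the femur, the placebo groups included, so each group describes an animal with a healing bone. Samples were collected 12 weeks after treatment began, with placebo being water. The labels give no ages, but the paper lists the same age at the start for every group. The 14 WT sera comprised 5 of the placebo arm, 5 of the PTH (parathyroid hormone) arm and 4 of the arm on anti-sclerostin, an antibody against an inhibitor of bone formation. Placebo and PTH were likewise represented by 5 ZDF sera each, and anti-sclerostin and insulin by 4 each. Ulnae were sequenced for placebo and PTH only, with 4 bones per genotype and arm.

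MicroRNAs are short RNAs that pair, mainly through bases 2 to 8 (the seed), with messenger RNAs and lower their translation or stability. Each is cut from a hairpin precursor that can release an RNA from either arm, named 5p and 3p, and one arm usually prevails. The miR-181 family is best known from blood-forming tissue, where miR-181a tunes the sensitivity of the T cell receptor and takes part in lymphocyte development, and it is also present in mesenchymal cells.

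The 5 members, printed below 5′ to 3′ from RefSeq with the seed in capitals, show why they are counted as 1 family and how little separates them. The first 4 lines are the 5p members and the last is the 3p arm of one precursor of miR-181a:
rno-miR-181a-5p: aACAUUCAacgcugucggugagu
rno-miR-181b-5p: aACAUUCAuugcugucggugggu
rno-miR-181c-5p: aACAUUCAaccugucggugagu
rno-miR-181d-5p: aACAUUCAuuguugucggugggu
rno-miR-181a-1-3p: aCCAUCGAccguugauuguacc
The 4 5p members shared 1 seed, and no other of the 693 mature rat miRNAs in the RefSeq table carried it. Counted from 1 at the 5′ end, rno-miR-181b-5p differed from rno-miR-181d-5p only by C12U, and rno-miR-181a-5p from rno-miR-181b-5p by A9U, C10U and A21G. Removal of the G at position 11 of rno-miR-181a-5p gave rno-miR-181c-5p. The seed of rno-miR-181a-1-3p was another one, shared in that table only with rno-miR-181c-3p, from which it differed by U16G and U19G. The reads were aligned to mature sequences with 1 mismatch allowed, so reads with an error at the single differing base of rno-miR-181b-5p and rno-miR-181d-5p could fall to either, and the split between them is uncertain to that degree.

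On the RefSeq build GRCr8 the genes lay in 3 pairs, all on the plus strand. Mir181a-1 and Mir181b1 stood on chromosome 13, with rno-miR-181a-5p at chr13:52037081-52037103, rno-miR-181a-1-3p at chr13:52037121-52037142 and rno-miR-181b-5p at chr13:52037263-52037285. A second copy of rno-miR-181a-5p, in Mir181a2, stood at chr3:43025601-43025623, with Mir181b2 starting 1103 bases after the start of the Mir181a2 hairpin. On chromosome 19, rno-miR-181c-5p (Mir181c, chr19:40888314-40888335) and rno-miR-181d-5p (Mir181d, chr19:40888484-40888506) began 170 bases apart. Reads of rno-miR-181a-5p therefore cannot be assigned to 1 of its 2 genes, whereas rno-miR-181a-1-3p comes from the chromosome 13 copy alone.

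The bone libraries held 41627 to 1398702 miRNA reads and the sera 28015 to 205664, which were 1.58% to 21.5% and 0.529% to 4.09% of all reads. Levels are given as CPM, reads of a miRNA per 1000000 miRNA reads, with library sizes scaled by TMM (trimmed mean of M values) over all 48 libraries, whereas each fold change below comes from a fit with its own scaling. Some libraries stood apart. WT PTH bones 1 and 2 had 54497 and 41627 miRNA reads, against 163549 and 282285 in the other 2 bones of that group, and bone 2 had the lowest correlation of the 16 bones with the mean of the others in its group, r = 0.823. Among the sera, insulin-treated ZDF rats had a log2 ratio of miR-451 (red cells) to miR-23a of 3.52 ± 0.25 (SD, n = 4), against 0.68 ± 0.74 (n = 5) in placebo ZDF sera, a measure of hemolysis whose part in the values below was not tested. No 2 libraries of a group were copies of each other over the 82 pairs compared. According to the study's methods the bones came from rats whose sera were also sequenced, apart from some of the PTH ZDF bones. Since the labels do not tie a bone to its serum, the comparisons of bone with serum treat the libraries as independent. P-values set the difference between groups against the spread between these libraries.

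**Figure D1:**
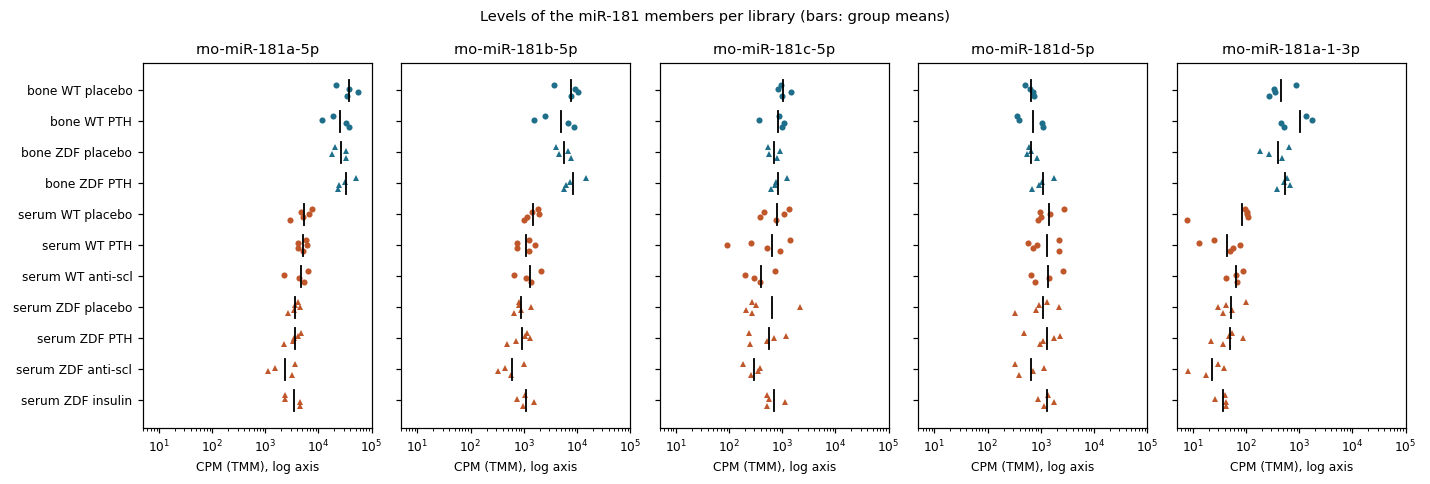
Levels of the 5 members in CPM (log axis) in each library of the 11 groups; circles are WT, triangles ZDF, blue bone and orange serum, and bars are group means. All 16 bones lie above all 32 sera for rno-miR-181a-5p (lowest bone 11769.5 CPM, highest serum 7474 CPM) and for rno-miR-181a-1-3p, whereas rno-miR-181c-5p and rno-miR-181d-5p overlap between the tissues. The share of all miRNAs that separate in this way was not computed.

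The 5p arm of miR-181a was the most abundant member in both tissues and far more abundant in bone. rno-miR-181a-5p averaged 30277 ± 11773 CPM in bone (SD, n = 16), 10th among the miRNAs detected there, and 4067 ± 1499 CPM in serum (n = 32), where it stood 42nd. Placebo WT bones had 21019, 36829, 55685 and 34269.8 CPM. In placebo ZDF bones it measured 20756, 32774, 18248 and 32446 CPM. PTH-treated WT bones gave 19020.1, 11769.5, 33094 and 37268 CPM, and PTH-treated ZDF bones 51288, 31485, 24800.5 and 23682 CPM. The 4 bone groups overlapped each other, the lowest value being that of the shallow WT PTH bone 2, and no bone fell to the level of any serum.

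In serum the WT groups came first in the order of mean rno-miR-181a-5p. The placebo WT sera had 7474, 4651, 6663, 5052 and 2920.2 CPM (mean 5352 ± 1783, n = 5). WT sera under PTH had 5771, 4149.9, 6148, 4082 and 5195 CPM (5069 ± 935, n = 5), and under anti-sclerostin 6463, 2266, 4312 and 5366 CPM (4602 ± 1788, n = 4). The ZDF groups followed. Placebo ZDF sera measured 4159.7, 3664, 4536, 3460.3 and 2621 CPM (3688 ± 730.4, n = 5), PTH ZDF sera 4777, 4058, 3419.5, 3348 and 2274 CPM (3575 ± 928, n = 5), insulin ZDF sera 2389, 2371, 4544 and 4440.4 CPM (3436 ± 1220.3, n = 4) and anti-sclerostin ZDF sera 3687, 1547, 1127 and 3214 CPM (2394 ± 1247, n = 4). Every group overlapped its neighbour in this order, so the ranking of the serum groups is a description only.

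rno-miR-181b-5p, whose genes neighbour those of miR-181a, followed it at a lower level. It averaged 6759 ± 3281 CPM in bone (36th) and 1069 ± 437 CPM in serum (71st). The bones ranged from 1549 to 15111 CPM, and the sera from 324 to 2131 CPM. Only WT PTH bone 2, at 1549 CPM, lay within the range of the sera.

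The chromosome 19 pair showed another picture. rno-miR-181c-5p measured 361 to 1447 CPM in bone (mean 854 ± 273, 85th) and 90.9 to 2116 CPM in serum (mean 586 ± 454, 81st). rno-miR-181d-5p measured 362 to 1772 CPM in bone (790.4 ± 346, 87th) and 328 to 2779.9 CPM in serum (1225 ± 684, 67th). On the CPM scale it was the only one of the 5 with a higher mean in serum than in bone. As a share of all reads, deposited beside the counts as RPM (reads per 1000000 reads of the whole library), it was higher in bone (69.0 ± 49.7 RPM, n = 16) than in serum (19.5 ± 14.1 RPM, n = 32), miRNA reads being a larger share of the bone libraries.

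The 3p arm was mainly a bone RNA by count. rno-miR-181a-1-3p had 35 to 339 reads per bone and 1 to 15 reads per serum, which gave 186 to 1729 CPM (mean 604 ± 411) and 7.85 to 108 CPM (mean 51.8 ± 29.9). Serum values of this arm thus rest on few reads. The further mature RNAs of the family listed in the files were scarcer than the 5 members in bone, and in serum all but rno-miR-181c-3p, which had 277 reads (mean 93.8 CPM) there against 149 of rno-miR-181a-1-3p. In bone, rno-miR-181c-3p had 483 reads in total and rno-miR-181a-2-3p 330, and rno-miR-181a-2-3p had 46 in serum. rno-miR-181b-1-3p (10 reads in bone, 1 in serum), rno-miR-181d-3p (2 and 8) and rno-miR-181b-2-3p (1 and 0) were barely seen. The 5 members together made up 3.81% ± 1.51 of miRNA reads in bone (n = 16) and 0.691% ± 0.201 in serum (n = 32).

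The make-up of the family within a library, which no scaling can change, differed between the tissues. Of the reads of the 4 5p members, rno-miR-181a-5p took 78.7% ± 2.7 in bone and 58.9% ± 9.1 in serum, and rno-miR-181b-5p 16.9% ± 2.9 and 15.4% ± 2.6. The share of rno-miR-181c-5p was 2.32% ± 0.58 in bone and 8.15% ± 4.22 in serum, and that of rno-miR-181d-5p 2.11% ± 0.52 and 17.6% ± 6.7. The ratio of rno-miR-181b-5p to rno-miR-181d-5p reads, 2 RNAs that differ by C12U, had a median of 8.10 in bone (3.90 to 14.2) and of 0.852 in serum (0.394 to 3.00), with no overlap between the 16 bones and the 32 sera. This ratio was chosen after its values were seen and is given with no test.

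The ratio of rno-miR-181a-5p to rno-miR-181b-5p, by contrast, had a median of 4.32 in bone and 3.83 in serum. On the log2 scale, with 0.5 reads added to each count, bone exceeded serum by 0.45 in placebo WT (2.28 ± 0.24, n = 4, against 1.83 ± 0.23, n = 5; exact two-sided permutation p = 0.0476, adjusted over the 4 pairs 0.190). The differences were 0.13 in placebo ZDF (exact permutation p = 0.397), 0.33 in PTH WT (p = 0.190) and 0.02 in PTH ZDF (p = 1). After adjustment none was below 0.05, the threshold used for the exact permutation tests, although the first lies under the 0.2 used for calls over all miRNAs. In placebo WT the difference ran from 0.36 to 0.54 with each of the 9 libraries left out, but its p passed 0.05 only without bone 2, the other 8 giving 0.0571 to 0.107, and 3 bones against 5 sera can give no p below 0.0357.

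**Figure D2:**
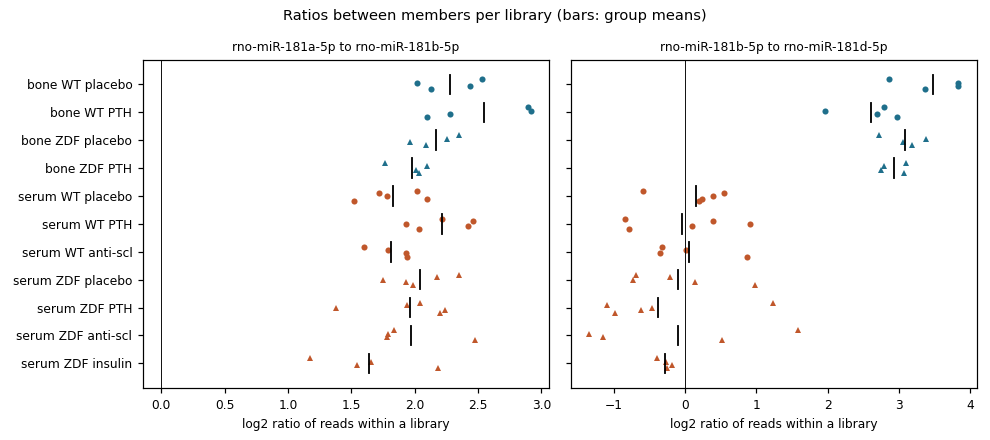
Log2 ratio of reads within each library, rno-miR-181a-5p over rno-miR-181b-5p on the left and rno-miR-181b-5p over rno-miR-181d-5p on the right; circles are WT, triangles ZDF, blue bone and orange serum, bars are group means. On the left the tissues overlap; on the right the bones (3.90 to 14.2 as plain ratios) and the sera (0.394 to 3.00) do not.

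Bone was compared with serum of the same genotype and treatment by edgeR's quasi-likelihood test. A log2 fold change of 1 is a doubling, and a member was called where its FDR, the p-value adjusted by Benjamini-Hochberg over all miRNAs tested, was below 0.2. The tissues differed for most miRNAs. In placebo WT, 80.6% of the 222 miRNAs tested were called, in placebo ZDF 86.1% of 202, in PTH WT 79.9% of 184 and in PTH ZDF 81.6% of 190. Leaving aside rno-miR-181a-1-3p, which sera held too rarely to be tested without the bones, 3 of the other 4 members were called in each pair, a share near that background. These were rno-miR-181a-5p and rno-miR-181b-5p, higher in bone, together with rno-miR-181d-5p, lower, or in PTH ZDF with rno-miR-181c-5p, higher. Among all miRNAs tested, 41.9% were higher and 38.7% lower in bone in placebo WT, 46% and 40.1% in placebo ZDF, 37.5% and 42.4% in PTH WT, and 46.3% and 35.3% in PTH ZDF.

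rno-miR-181a-5p was higher in bone in all 4 pairs. The log2 fold change was 2.62 ± 0.38 (SE) in placebo WT (FDR = 2.46e-05), 2.72 ± 0.28 in placebo ZDF (FDR = 5.55e-07), 1.98 ± 0.53 in PTH WT (FDR = 0.00139) and 3.28 ± 0.40 in PTH ZDF (FDR = 2.99e-06). The bones and sera of each pair did not overlap, as was the case for 56.8%, 66.8%, 57.6% and 66.8% of the miRNAs tested, and the exact permutation p was 0.0159 in each, the smallest that 4 bones against 5 sera can give. The median over all miRNAs in these fits lay between -0.07 and 0.42, well under the values of rno-miR-181a-5p.

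Close beside it, rno-miR-181b-5p was higher in bone by 2.21 ± 0.36 (log2, SE) in placebo WT, 2.59 ± 0.30 in placebo ZDF, 1.81 ± 0.60 in PTH WT and 3.28 ± 0.43 in PTH ZDF, with FDR from 1.43e-06 to 0.00867. Without the 2 shallow bones, the PTH WT values were 2.55 for rno-miR-181a-5p and 2.56 for rno-miR-181b-5p.

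For rno-miR-181a-1-3p the log2 fold changes were 2.44 ± 0.62, 2.86 ± 0.51, 4.04 ± 0.65 and 3.52 ± 0.48 in the same order, with FDR at most 0.00264. Sera held too few of its reads for it to enter any fit of serum alone, so it was tested here only through the bones and had to differ. The value in placebo WT was 1.71 without bone 1 of that group, and in PTH WT 3.19 without the 2 shallow bones.

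Among miRNA reads rno-miR-181d-5p went the other way. Placebo WT bones had 499.6, 638, 726 and 762 CPM and placebo WT sera 2779.9, 963, 1472, 994 and 887 CPM, without overlap. It was lower in bone by a log2 fold change of -1.24 ± 0.42 (FDR = 0.0149). In placebo ZDF the value was -0.81 ± 0.40 (FDR = 0.0831) and in PTH WT -1.09 ± 0.62 (FDR = 0.112), and in both the CPM ranges of bone and serum overlapped. Those last 2 calls were not firm. In placebo ZDF the call was lost without bone 1 (-0.43) or bone 3 (-0.35), and in PTH WT without bone 1 (-0.73), bone 2 (-0.79), serum 5 (-0.81) or both shallow bones (-0.47). The direction belongs to the miRNA-read scale. In RPM of all reads the mean was higher in bone in each pair, 69.7 against 24.8 in placebo WT, 60.4 against 13.4 in placebo ZDF, 42.0 against 25.6 in PTH WT and 104 against 18.8 in PTH ZDF. In PTH ZDF the log2 fold change of rno-miR-181d-5p was -0.09 ± 0.44 (FDR = 0.851).

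rno-miR-181c-5p, the near neighbour of miR-181d on chromosome 19, was called in PTH ZDF alone, at 0.72 ± 0.46 (FDR = 0.174), and that call was lost without bone 1 (0.49) or bone 2 (0.68) and without serum 1 (0.61), 3 (0.65), 4 (0.53) or 5 (0.38). In the other pairs its FDR was 0.579 to 0.865. Whether the tissue difference itself differed between the 4 pairs was not tested.

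**Figure D3:**
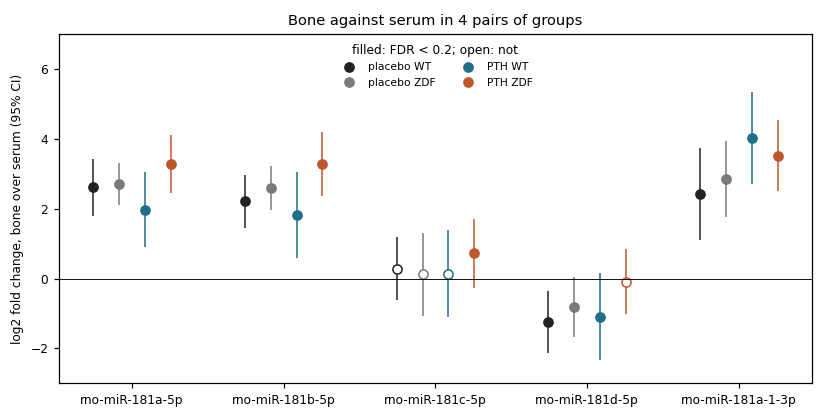
Log2 fold change of bone over serum for each member in the 4 pairs of groups, with 95% confidence intervals; filled points passed FDR < 0.2. rno-miR-181a-5p (1.98 to 3.28) and rno-miR-181b-5p lie above 0 in every pair, rno-miR-181d-5p lies below 0 (-1.24 to -0.09), and the intervals of rno-miR-181c-5p all include 0. The points of rno-miR-181a-1-3p also lie above 0, but it was tested only through the bones and had to differ.

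Lists of miRNAs typical of other cells, none holding a member, describe the surroundings of these values. Of 10 leukocyte miRNAs, 9 or 10 were tested in each pair; 1 to 3 were higher in bone, 5 or 6 lower and 2 not called, with a median log2 fold change of -3.13 to -1.09. Of 10 mesenchymal miRNAs, all were tested, 7 to 9 were higher in bone, 0 or 1 lower and 1 or 2 not called, with a median of 1.97 to 2.72. The 5 members had medians of 1.81 to 3.28, but these include rno-miR-181a-1-3p, which had to differ. They are therefore not set against the medians of the lists. The other 4 members ranged from -1.24 (rno-miR-181d-5p, placebo WT) to 3.28 (rno-miR-181b-5p, PTH ZDF). The summed leukocyte list was 13379 to 31203 CPM in bone and 49812 to 335021 CPM in serum, the mesenchymal list 111212 to 379411 and 23919 to 85425 CPM. In serum much of the leukocyte sum came from rno-miR-92a-3p alone, at 33142 to 288853 CPM against 1980 to 6587 CPM in bone. Much of the mesenchymal sum in bone likewise came from rno-miR-143-3p, at 25991 to 295192 CPM. Red cell miRNAs (4) summed to 8139 to 13989 CPM in bone and 22330.0 to 428100 CPM in serum, and skeletal muscle miRNAs (4) to 48027 to 438044 CPM in bone and 109 to 43233 CPM in serum. Most of the muscle sum in bone was rno-miR-133a-3p, at 45247 to 429470 CPM. The liver miRNA rno-miR-122-5p, present in every serum (52.3 to 1824 CPM), was at 0 to 11.0 CPM in bone. The bones thus held muscle and blood miRNAs besides those of bone, and the part of these cells in the miR-181 values was not tested. In bulk tissue, fewer cells of a type and less RNA per cell cannot be told apart.

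The study then asked what diabetes and its treatment change within a tissue. In the 12 such comparisons none of the members passed FDR < 0.2 in any of the 52 fits of a member (FDR 0.271 to 0.993), and 2 had an unadjusted p under 0.05. DESeq2 called 1. Several of these comparisons share control libraries, so their values are not independent. Sera were tested for 4 members, since rno-miR-181a-1-3p did not enter.

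For ZDF against WT, the share of all miRNAs called was 6.1% in placebo serum, 0% in PTH serum, 0.855% in anti-sclerostin serum, 17% in placebo bone and 7.89% in PTH bone. rno-miR-181a-5p gave log2 fold changes of -0.31 ± 0.30 (SE), -0.45 ± 0.33 and -0.44 ± 0.46 in the 3 serum comparisons, with 95% intervals from -0.94 to 0.32, -1.16 to 0.25 and -1.45 to 0.57 (FDR 0.760 to 0.896). In bone it gave -0.48 ± 0.36 under placebo (-1.27 to 0.30, FDR = 0.452) and 0.44 ± 0.38 under PTH (-0.38 to 1.25, FDR = 0.605). The last value was -0.03 without the 2 shallow bones. On the CPM levels scaled over all libraries, PTH sera of ZDF rats had less rno-miR-181a-5p than those of WT rats (exact permutation p = 0.0317), and placebo ZDF sera less rno-miR-181b-5p than placebo WT sera (904 ± 264 against 1475 ± 406 CPM, exact permutation p = 0.0317). rno-miR-181a-1-3p had 1 to 7 reads in anti-sclerostin ZDF sera and 4 to 8 in anti-sclerostin WT sera (exact permutation p = 0.0286). Its CPM did not overlap between these groups, as for 3.42% of the miRNAs tested there, which had more reads and did not include it. These 3 exact permutation tests were among 60, and the lowest adjusted p was 0.571.

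With PTH no member passed in either tissue. In serum, rno-miR-181a-5p changed by -0.03 ± 0.29 (log2, SE) in ZDF serum (95% interval -0.64 to 0.58) and by 0.08 ± 0.33 in WT serum (-0.62 to 0.79), where 0% of all miRNAs were called in both. In bone its log2 fold change was 0.35 ± 0.32 in ZDF rats (-0.35 to 1.05, FDR = 0.750; 0% called) and -0.50 ± 0.40 in WT rats (-1.37 to 0.37, FDR = 0.507; 16.8% called). For rno-miR-181d-5p in ZDF bone, placebo gave 615, 661, 557 and 838 CPM and PTH 1772, 1063, 914 and 686 CPM. The groups overlapped through the lowest PTH bone, with an unadjusted p of 0.0497 and FDR = 0.678. Without PTH ZDF bone 4, the lowest one, it was called (FDR = 0.161).

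The value of the 3p arm in WT bone depended on the libraries. rno-miR-181a-1-3p measured 879, 338, 353 and 275 CPM under placebo and 1352, 1729, 463 and 525 CPM under PTH. The 2 high PTH values belonged to the shallow bones, and the 2 others lay within the placebo range. The fit gave 2.46-fold more under PTH, with a 95% interval of the log2 fold change from -0.06 to 2.65. With FDR = 0.271 it was not called by edgeR, DESeq2 called it at FDR = 0.172, and it was called when any 1 of placebo WT bone 1 (FDR = 0.0607), PTH WT bone 3 (0.181) or PTH WT bone 4 (0.177) was left out. Without the 2 shallow bones the log2 fold change was -0.09 (FDR = 0.957). These bones also carried the comparison of PTH-treated ZDF with WT bone, where rno-miR-181a-1-3p gave -1.02 (FDR = 0.360), 0.21 without both and a call without PTH WT bone 4 (-1.25, FDR = 0.192).

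The RPM of all reads gave the opposite order for this arm. On that scale PTH WT bones had 27.5, 25.4, 30.4 and 40.5 RPM (31.0 ± 6.7, n = 4) and placebo WT bones 49.3, 47.8, 37.0 and 30.5 RPM (41.1 ± 8.9, n = 4). Across the 16 bones rno-miR-181a-1-3p spanned 15.0 to 72.7 RPM, while rno-miR-181a-5p, which comes from that precursor and from the chromosome 3 copy, spanned 173 to 6240 RPM. miRNA reads were 2.11% and 1.58% of all reads in the 2 shallow bones, 5.92% and 7.23% in the other PTH WT bones and 5.06% to 14.8% in the placebo WT bones. What part the low miRNA share plays in these values was not tested.

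Insulin and anti-sclerostin were followed in serum alone. With insulin, 26.5% of all miRNAs tested in ZDF serum were called and none of the members was. rno-miR-181a-5p changed by -0.21 ± 0.24 (log2, SE; 95% interval -0.73 to 0.31, FDR = 0.641). Scaling by library totals, which moved the median of all miRNAs in this comparison by -0.31, gave -0.55 and a call (FDR = 0.131), and turned the 40 calls over all miRNAs, 17 of them higher, into 59 calls, 9 of them higher. For the anti-sclerostin rats the paper cites a different earlier study than for the placebo rats, so drug and study cannot be told apart there. Under anti-sclerostin, 5.38% of miRNAs were called in ZDF serum and 3.7% in WT serum. Here rno-miR-181a-5p gave -0.33 ± 0.39 in ZDF rats (-1.17 to 0.51) and -0.21 ± 0.36 in WT rats (-0.96 to 0.55). rno-miR-181c-5p was at 722, 196, 296 and 382 CPM in anti-sclerostin WT sera and at 1335, 444, 1075, 383 and 754 CPM in placebo WT sera, with overlap, an unadjusted p of 0.0425 and FDR = 0.352.

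A single placebo ZDF serum weighed on rno-miR-181c-5p. Serum 3 of that group had 2116 CPM (215 reads) where the others had 269, 314, 205 and 267 CPM. Without it rno-miR-181c-5p was called in 3 comparisons: lower in ZDF than in WT placebo serum (log2 fold change -1.11, FDR = 0.195), higher with insulin than with placebo (1.14, FDR = 0.0291), and higher in bone than in serum in placebo ZDF (0.92, FDR = 0.0284). With it the values were -0.25, 0.15 and 0.12, and none passed.

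**Figure D4:**
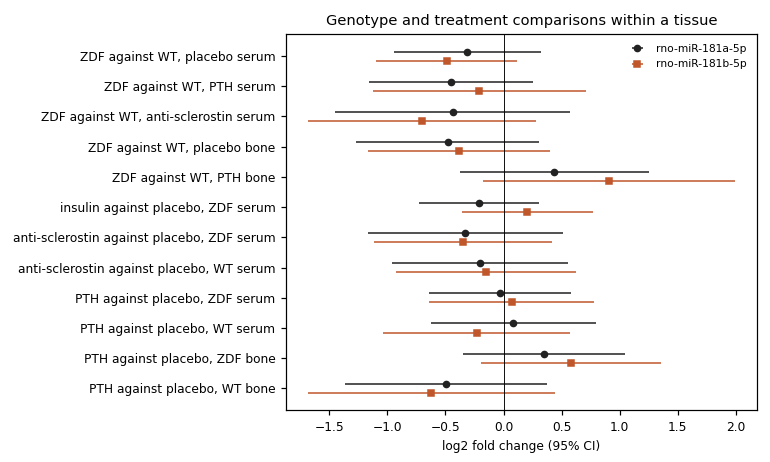
Log2 fold changes of rno-miR-181a-5p (black circles) and rno-miR-181b-5p (orange squares) with 95% confidence intervals in the 12 genotype and treatment comparisons within a tissue. All 12 intervals of rno-miR-181a-5p include 0, and its values run from -0.50 to 0.44.

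Whether WT and ZDF rats respond differently was tested as an interaction. For rno-miR-181a-5p the term was -0.22 ± 0.41 for PTH in serum (FDR = 0.969), 0.87 ± 0.57 for PTH in bone (FDR = 0.632) and -0.10 ± 0.51 for anti-sclerostin in serum (FDR = 0.934). None of the members was called, against 0%, 1.35% and 0% of all miRNAs, and none had an unadjusted p under 0.05. In bone only rno-miR-181a-5p and rno-miR-181b-5p stayed among the 74 miRNAs tested, the other 3 being removed by the filter on low levels. The bone term of rno-miR-181a-5p was called without PTH WT bone 4 (1.07, FDR = 0.185). None of the leukocyte and mesenchymal miRNAs was called in the 3 interactions. In the 12 comparisons within a tissue, 0 to 3 of the leukocyte list were called and 0 to 5 of the mesenchymal list. The 5 mesenchymal calls, all lower, were among 10 tested in placebo bone of ZDF against WT, where 17% of all miRNAs were called. The 3 leukocyte calls, also lower, came from 9 tested there and from 9 tested with insulin in ZDF serum (26.5% of all miRNAs called).

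Across the sera, but not across the bones, correlations were highest within the pairs of neighbouring genes. Over the 32 sera, log2 CPM of rno-miR-181a-5p and rno-miR-181b-5p correlated at r = 0.874 (rho = 0.866), and rno-miR-181c-5p and rno-miR-181d-5p at r = 0.752 (rho = 0.785), both with an adjusted permutation p of 4e-05 over the 12 pairs and tissues, their raw p being the smallest that 100000 permutations allow. Between these pairs r was 0.293 to 0.528. Without the 2 sera farthest from the median, r was 0.804 for the first and 0.790 for the second pair, and after removal of group means 0.847 and 0.745. Over the 16 bones, r of rno-miR-181a-5p was 0.944 with rno-miR-181b-5p (adjusted permutation p = 4e-05), 0.865 with rno-miR-181c-5p (9e-05) and 0.740 with rno-miR-181d-5p (0.00256), while rno-miR-181b-5p gave 0.731 with rno-miR-181c-5p (0.0028) and 0.839 with rno-miR-181d-5p (9.6e-05). The chromosome 19 neighbours rno-miR-181c-5p and rno-miR-181d-5p had the lowest r of the 6 pairs in bone, 0.532 (adjusted permutation p = 0.0382). Without the 2 most distant bones those 6 values were, in the same order, 0.929, 0.748, 0.653, 0.679, 0.740 and 0.472. The points share the total of their library, and scaled by library totals the 4 sera correlations between the pairs fell to between -0.06 and 0.04.

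Of all miRNAs with a mean of at least 100 CPM, those most like rno-miR-181a-5p by Spearman's rho over the 16 bones (176 miRNAs) were rno-miR-181b-5p (0.947), rno-miR-181c-5p (0.812), rno-miR-423-5p (0.735), rno-miR-222-3p (0.729) and rno-miR-181d-5p (0.706). The 3p arm of one of its 2 precursors, rno-miR-181a-1-3p, stood 150th, with rho = -0.418. Over the 32 sera (169 miRNAs) the order was rno-miR-181b-5p (0.866), rno-miR-532-5p (0.722), rno-miR-26a-5p (0.701), rno-miR-221-3p (0.629) and rno-miR-27b-3p (0.605), with rno-miR-181d-5p 27th and rno-miR-181c-5p 50th.

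**Figure D5:**
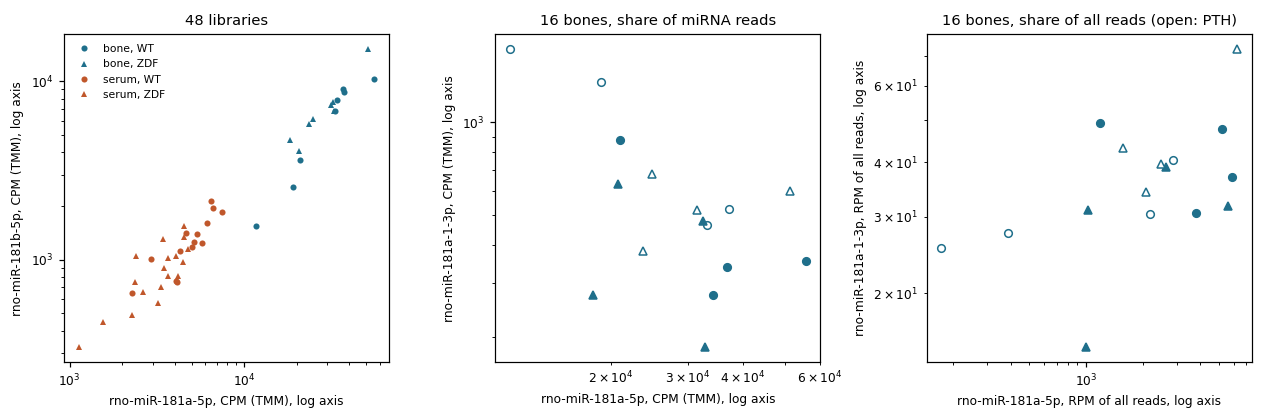
Levels per library on log axes: rno-miR-181b-5p against rno-miR-181a-5p in 48 libraries in CPM (left), and rno-miR-181a-1-3p against rno-miR-181a-5p in the 16 bones in CPM (middle) and in RPM of all reads (right), with circles for WT, triangles for ZDF and open symbols for PTH in the bone panels. The 5p pair rises together, whereas the 3p arm in CPM is highest in the 2 WT PTH bones with the least rno-miR-181a-5p among WT bones and spans 15.0 to 72.7 in RPM.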

How the data were processed

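The deposited tables gave, per library and mature miRNA, a read count and the authors' RPM (reads per 1000000) of all library reads; both were used, and the RPM of miRNA reads beside them was not. The authors trimmed adapters with cutadapt, mapped to the rat genome with Bowtie and miRDeep2, and then to rat miRBase entries with 1 mismatch. Spike-in rows stayed out. From the counts, TMM-scaled CPM were computed over 48 libraries, with a pseudocount of 1 where logs were taken. Comparisons used edgeR 4.0.16 (filterByExpr, TMM, quasi-likelihood fit of the groups compared, independent filtering over 50 quantiles of mean CPM, Benjamini-Hochberg, FDR < 0.2) in R 4.3.3. A run on simulated counts required planted changes to be found with the right sign, and set no limit on false calls. DESeq2 1.42.0, RLE factors, library totals, looser filters, FDR < 0.05, 1 fit of all groups and leaving out each library were tried. The other permutation tests were two-sided. Depth is given per tissue; sera with few reads of a member limit its precision to counting error. The members and lists were chosen with earlier results of these data known. Log2 fold changes are printed for called members and for rno-miR-181a-5p, and the others where 1 library decided a call. Sequences and positions are from RefSeq (GRCr8), where all 5 members matched; the reads were aligned to another build.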

Additional observations from a re-analysis of the deposited data

Results flagged for a closer look

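Of 55 member and group combinations, 5 had a library far from the rest of its group, where chance alone would flag about 1 in 20. For rno-miR-181c-5p the high sera were placebo ZDF 3, at 2116 CPM beside 314 CPM in the next, and insulin ZDF 3, at 1136 CPM beside 563 CPM. For rno-miR-181a-1-3p they were placebo WT bone 1, at 879 CPM beside 353 CPM, placebo WT serum 5, low at 7.85 CPM (1 read) beside 97.7 CPM, and insulin ZDF serum 2, low at 26.2 CPM (2 reads) beside 40.5 CPM.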

How the results depend on the processing

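No paired analysis was possible because the labels carry no replicate numbers and do not tie a bone to the serum of the same rat, although most bones and sera share rats. Sera limit the family most: 1 to 15 reads of rno-miR-181a-1-3p and 6 to 215 of rno-miR-181c-5p per library. Scaling by library totals moved the median of all miRNAs between bone and serum by -0.25 to 0.34 and 1 fit of all groups by 0.24 to 0.47; the called directions stayed. rno-miR-181d-5p lost its call in placebo ZDF with all miRNAs of at least 1 read (-0.58) and in 1 fit of all groups (-0.46), and in PTH WT with library totals (-0.63) and 1 fit (-0.60); rno-miR-181c-5p lost that of PTH ZDF with RLE factors (0.62) and library totals (0.52). The cause was not tested.

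The number of members called within a tissue went from 0 to 1 for insulin with library totals, and for PTH in WT bone with DESeq2, all miRNAs of at least 1 read and 1 fit of all groups. With each library left out it ran, rno-miR-181a-1-3p included, from 3 to 5 in placebo ZDF and from 3 to 4 in PTH WT and PTH ZDF for bone against serum, from 0 to 1 for ZDF against WT in placebo serum and in PTH bone, for insulin, for PTH in ZDF and in WT bone and for the PTH interaction in bone, and stayed at 4 or 0 elsewhere. In the counts of bone against serum, rno-miR-181a-1-3p had to differ, and 79.9% to 86.1% of all miRNAs were called with all libraries kept. The number of members whose bones all lay above all sera ran from 2 to 3. It includes rno-miR-181a-1-3p, of which sera held few reads, and the share of all miRNAs that separate in this way was not computed.

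The log2 fold change of rno-miR-181a-5p changed sign for PTH in ZDF serum with all miRNAs of at least 1 read (0.0113) and in PTH bone without the 2 shallow bones (-0.0265), an alternative chosen after seeing the data. Leave-one-out values spanned 0 for anti-sclerostin in WT serum (-0.34 to 0.0559), PTH in ZDF serum (-0.25 to 0.0799), PTH in WT serum (-0.062 to 0.26) and the serum interactions with PTH (-0.26 to 0.014) and anti-sclerostin (-0.60 to 0.0542). The log2 ratio of rno-miR-181a-5p to rno-miR-181b-5p ran from 0.36 to 0.54 in placebo WT, 0.05 to 0.20 in placebo ZDF, 0.21 to 0.48 in PTH WT and -0.13 to 0.0866 in PTH ZDF. With library totals the serum correlations of rno-miR-181a-5p turned to -0.064 with rno-miR-181c-5p and -0.0534 with rno-miR-181d-5p.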
